A study of Mus musculus with 9 samples.

Results

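The genes described here encode 4 proteins that macrophages secrete into the extracellular matrix: osteopontin (Spp1), fibronectin (Fn1), thrombospondin-1 (Thbs1) and the TGF-beta-induced protein (Tgfbi). They were chosen by the number of their UniGene cluster, the identifier that the array table carries. Spp1 was read from cluster Mm.288474's probe set, Fn1 from Mm.193099's, Thbs1 from Mm.4159's and Tgfbi from Mm.14455's. All 4 were found, each with a single probe set, among the 17810 clusters of the array table. The gene names are those assigned to these cluster numbers when the genes were chosen. Neither the deposited table nor the RefSeq gene table used here pairs the numbers with symbols, so the names could not be checked against the data.

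The samples were macrophages grown from bone marrow of C57BL/6 mice in 30 ng/ml of M-CSF, the growth factor on which macrophages depend. On day 4 the medium was exchanged, and RNA was taken 3 days later. The first group received medium in which B16F1 melanoma cells of the mouse had grown. To this were added the glucocorticoid dexamethasone (5e-07 M) and the cytokine IL-4 (10 ng/ml), and the group is labelled cmB16F1 and dexa+IL4, here the combination. The second received dexamethasone and IL-4 at the same concentrations in fresh medium (dexa+IL4), and the third received only the conditioned medium (cmB16F1). Each group had 3 arrays, 1 per sample, and all groups had been grown with M-CSF. No arrays of macrophages in fresh medium alone were analysed here, so a difference between groups is relative to another stimulated group, and neither synergy nor additivity was tested. The labels do not say whether the arrays of a group come from separate mice or cultures, so p-values measure the spread between these samples, which may be technical.

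Matricellular and matrix glycoproteins connect cells to the fibres around them, mostly through integrins, and several of them also hold or release growth factors. Macrophages are a source of all 4 proteins in wounds and tumours. Osteopontin is a phosphorylated ligand of integrins and CD44 and acts both as a cytokine and as a bone matrix protein. Fibronectin is assembled by cells into fibrils that carry other matrix proteins. Thrombospondin-1 binds CD36 and CD47, restrains the growth of blood vessels and can activate latent TGF-beta. The TGF-beta-induced protein binds collagens and integrins, and together with fibronectin it is known in human macrophages as a product of alternative activation.

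In the RefSeq annotation of the mouse genome (build GRCm38.p6), Spp1 lies on chromosome 5 at positions 104435111 to 104441053. Fn1 lies on chromosome 1 at 71585473 to 71653280. Thbs1 lies on chromosome 2 at 118111876 to 118127133, and Tgfbi on chromosome 13 at 56609586 to 56639359. The 4 genes therefore sit on different chromosomes. The promoter set used here held no sequence for Fn1 and Thbs1. The 250 bases upstream of the annotated start are therefore shown for Spp1 and Tgfbi only. They are RefSeq's sequences for the plus strand of GRCm38.p6, at chr5:104434861-104435110 for Spp1 and at chr13:56609336-56609585 for Tgfbi, written 5′ to 3′ with motif matches in capitals.
Spp1: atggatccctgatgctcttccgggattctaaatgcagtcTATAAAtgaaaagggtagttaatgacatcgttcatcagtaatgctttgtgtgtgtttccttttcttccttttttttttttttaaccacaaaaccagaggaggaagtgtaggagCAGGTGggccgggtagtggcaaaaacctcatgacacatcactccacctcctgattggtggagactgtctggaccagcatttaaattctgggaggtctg
Tgfbi: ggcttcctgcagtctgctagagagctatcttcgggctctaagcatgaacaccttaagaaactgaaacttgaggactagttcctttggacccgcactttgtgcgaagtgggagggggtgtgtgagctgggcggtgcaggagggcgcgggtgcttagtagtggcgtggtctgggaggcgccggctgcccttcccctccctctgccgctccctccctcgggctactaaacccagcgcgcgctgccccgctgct

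Both strands of these windows were searched for 5 motifs, and the searched letters do not overlap among the matches found. The Spp1 window held a TATA box by its letters, TATAAA, at -211 to -206 from the start, and an E-box, CANNTG, at -98 to -93. The same windows of all 32851 starts in the promoter set used here held TATAAA in 12.4% and CANNTG in 66.2%. The Tgfbi window held none of the 5 motifs. AGAACA, the hexamer repeated in a glucocorticoid response element, was in neither window and in 16.1% of all. Neither the AP-1 motif TGANTCA, present in 6.75% of all windows, nor the STAT6 motif, TTC and GAA held 4 bases apart, in 5.85%, was in either. These matches describe the letters of the windows and say nothing of binding.

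The values are deposited log2 probe-set values, on which a difference of 1 is a 2-fold change. Array medians lay between 7.195 and 7.248. Bacterial poly-A control sets, which mark the low end of the scale, reached 7.00, and the highest value on any array was 14.23. Every value of the 4 genes lay above the bacterial controls, the lowest by 1.17, so none is a bound. Levels are compared only between groups for the same gene, since probe sets of different genes differ in brightness for a given amount of RNA. In bulk RNA, fewer cells that express a gene and less of its RNA per cell cannot be told apart. The labelled cell type could not be checked against macrophage markers, and the receptors and proteases that act on these proteins were not analysed, because the other clusters carry no gene names here. The averages of the hybridization control sets lay between 10.31 and 10.55 on the combination arrays, between 10.03 and 10.22 with dexa+IL4 and between 10.02 and 10.28 with cmB16F1, so the combination arrays were all above the others. With arrays scaled to these sets, the 9 calls between groups given for the 4 genes were all kept. That fit gave nearly equal SEs, 0.136 for Spp1 and Tgfbi, 0.147 for Fn1 and 0.148 for Thbs1. In the reported fit these were 0.206, 0.185, 0.095 and 0.202. The scaled fit thus drew little on each gene's own spread, and the calls kept under it are a weak check. Mouse control sets also differed between groups. Gapdh had means of 12.85 in the combination, 12.23 with dexa+IL4 and 13.14 with cmB16F1. In that order beta-actin had 13.74, 13.68 and 13.95, and the transferrin receptor, in the other direction, 8.65, 10.49 and 7.14. Whether scale or treatment lay behind this was not tested.

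**Figure D1:**
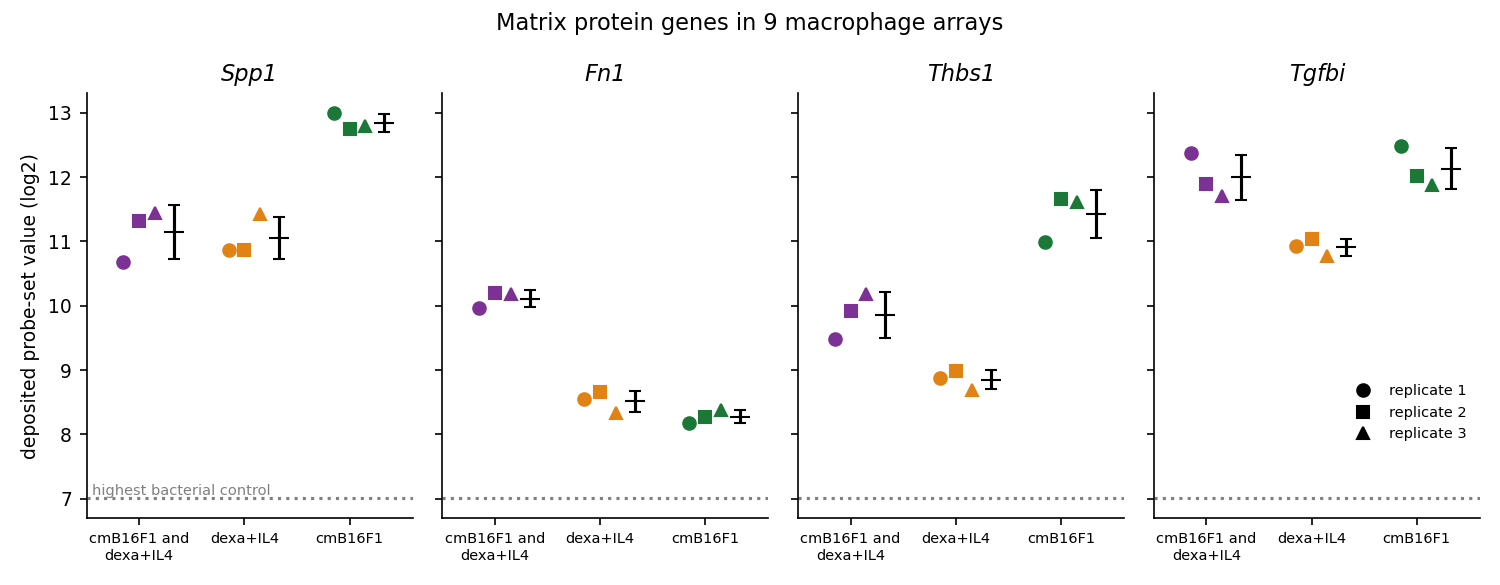
Deposited log2 probe-set values of Spp1, Fn1, Thbs1 and Tgfbi on each of the 9 arrays, by group, with replicate numbers as marker shapes, mean ± SD (n = 3) as black bars and the highest bacterial control (7.00) as a dotted line. Relative to the other groups, Spp1 is higher with cmB16F1 alone, Fn1 is higher in the combination and Tgfbi is lower with dexa+IL4. Thbs1 takes 3 separate levels.

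The 4 genes followed 4 different patterns over the 3 groups. Spp1 was highest with conditioned medium alone and 3.25-fold lower in the combination. Fn1 was highest in the combination and 3.03-fold to 3.59-fold lower in the single arms, which did not differ beyond the threshold. Thbs1 was highest with conditioned medium alone and lowest with dexa+IL4, with the combination between them. Tgfbi was lower with dexa+IL4 than in either group that had received conditioned medium.

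Spp1 was at 10.67, 11.32 and 11.45 in the combination, at 10.86, 10.86 and 11.43 with dexa+IL4 and at 13.002, 12.75 and 12.80 with cmB16F1. The combination and dexa+IL4 arrays overlapped, and all 6 lay below the cmB16F1 arrays. Group means were 11.15 ± 0.42, 11.05 ± 0.33 and 12.85 ± 0.14 in that order (SD, n = 3 each). Against cmB16F1, Spp1 fell in the combination (log2 fold change -1.70, SE 0.206, limma with Benjamini-Hochberg adjusted p = 0.000353). It was also 3.47-fold lower with dexa+IL4 than with cmB16F1 (log2 fold change -1.80, SE 0.206, limma adjusted p = 0.00016). Between the combination and dexa+IL4 no change passed the test (log2 fold change 0.10, limma adjusted p = 0.813), and the 95% confidence interval of -0.36 to 0.56 allows up to 1.47-fold. That small difference turned negative with 3 of 18 alternatives, at -0.16 with scaling to the hybridization controls, at -0.05 without combination replicate 3 and at -6.6e-05 without dexa+IL4 replicate 1. Spp1 thus had 2 distinguishable levels across 3 groups.

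Fn1 was at 9.97, 10.20 and 10.17 in the combination, at 8.55, 8.66 and 8.34 with dexa+IL4 and at 8.17, 8.26 and 8.38 with cmB16F1. Every combination array was above every array of the single arms, and the single arms overlapped. The means were 10.11 ± 0.13, 8.51 ± 0.16 and 8.27 ± 0.10 in that order (SD, n = 3 each). Fn1 rose 3.03-fold in the combination against dexa+IL4 (log2 fold change 1.60, SE 0.095, limma with Benjamini-Hochberg adjusted p = 9.54e-06). Against cmB16F1 it rose 3.59-fold (log2 fold change 1.84, SE 0.095, limma adjusted p = 1.26e-06). Fn1 was 0.24 higher with dexa+IL4 than with cmB16F1, with an interval of 0.03 to 0.46, and missed the threshold after adjustment (limma adjusted p = 0.0914). It passed with array weights (limma adjusted p = 0.0363) and without dexa+IL4 replicate 3 (0.0355), with a range from 0.0355 to 0.298 over 18 alternatives. In both calls the direction was the same, dexa+IL4 above cmB16F1. Fibronectin was therefore the member whose level in the combination lay outside the range of the single arms.

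Thbs1 was at 9.48, 9.92 and 10.19 in the combination, at 8.87, 8.98 and 8.69 with dexa+IL4 and at 11.00, 11.67 and 11.62 with cmB16F1. No 2 of the groups overlapped. The means were 9.86 ± 0.36, 8.85 ± 0.15 and 11.43 ± 0.37 in that order (SD, n = 3 each). In the combination Thbs1 rose 2.02-fold against dexa+IL4 (log2 fold change 1.01, SE 0.202, limma with Benjamini-Hochberg adjusted p = 0.00698). It fell 2.96-fold against cmB16F1 (log2 fold change -1.56, SE 0.202, limma adjusted p = 0.000539). Between the single arms the difference was 5.97-fold, with dexa+IL4 lower (log2 fold change -2.58, SE 0.202, limma adjusted p = 1.25e-05). Among the 17810 clusters, 24 were lower with dexa+IL4 by at least as much, Thbs1 included.

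Tgfbi was at 12.38, 11.89 and 11.71 in the combination, at 10.92, 11.04 and 10.78 with dexa+IL4 and at 12.49, 12.01 and 11.89 with cmB16F1. All dexa+IL4 arrays lay below the other 6, and the groups with conditioned medium overlapped. The means were 12.00 ± 0.35, 10.91 ± 0.13 and 12.13 ± 0.32 in that order (SD, n = 3 each). Tgfbi rose 2.12-fold in the combination against dexa+IL4 (log2 fold change 1.08, SE 0.185, limma with Benjamini-Hochberg adjusted p = 0.003). It was 2.32-fold lower with dexa+IL4 than with cmB16F1 (log2 fold change -1.21, SE 0.185, limma adjusted p = 0.000939). Between the combination and cmB16F1 the change was -0.13 with an interval from -0.55 to 0.28 (limma adjusted p = 0.728), which allows a fall of up to 1.46-fold. Over 18 alternatives it never passed, though none of these was a paired fit of the combination and cmB16F1 alone. It was -0.34 with scaling to the hybridization controls (interval -0.61 to -0.08, limma adjusted p = 0.0729), where the median of all features moved by -0.20. It was -0.33 without combination replicate 1, 0.0075 without its replicate 3 and 0.05 without cmB16F1 replicate 1.

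**Figure D2:**
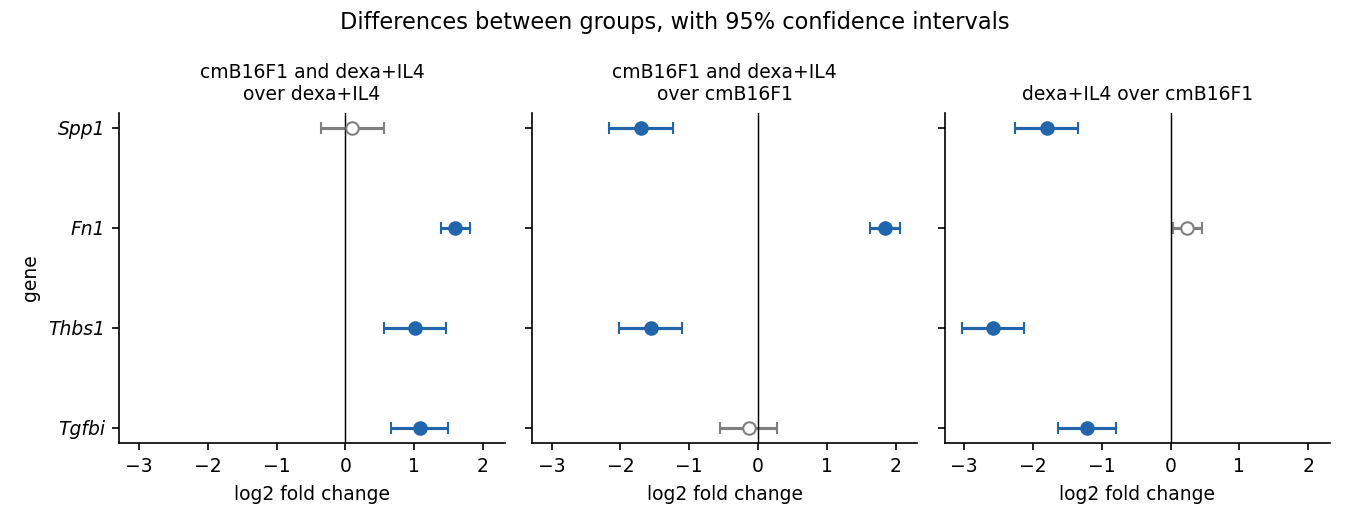
Log2 fold changes of the 4 genes in each comparison of 2 groups, from limma, with 95% confidence intervals. Filled points passed the adjusted threshold of 0.05 and open points did not, which leaves 1 open point per comparison, Spp1 at 0.10, Tgfbi at -0.13 and Fn1 at 0.24.

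Set against dexa+IL4, the combination shows the effect of conditioned medium in place of fresh medium, with dexamethasone and IL-4 in both. Of the 4 genes, 3 rose (Fn1, Tgfbi and Thbs1), 0 fell and 1 did not pass. Over all clusters 17.9% passed in either direction, and 8.88% were higher. The same 3 genes also changed by at least 2-fold, as did 0.668% of all clusters upward. The median size of change was 1.05 over the members and 0.07 over all clusters. No overlap between the groups' arrays was found for these 3 genes and for 36.1% of all clusters.

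Set against cmB16F1, it shows the effect of adding dexamethasone and IL-4 to conditioned medium. Here 1 gene rose (Fn1), 2 fell (Spp1 and Thbs1) and 1 did not pass. Over all clusters 14.1% passed in either direction, 6.56% higher and 7.57% lower. The median size of change was 1.63 over the members and 0.06 over all clusters. All 3 changes exceeded 2-fold, as did 0.606% of all clusters upward and 0.674% downward. Arrays did not overlap for these 3 genes and for 28.5% of all clusters.

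The single arms differ in every agent, so their comparison singles out none. With dexa+IL4, 3 genes were lower than with cmB16F1 (Thbs1, Spp1 and Tgfbi), 0 were higher and 1 did not pass. Over all clusters 25% passed in either direction and 12.2% were lower. At least 2-fold lower were the same 3 genes and 1.33% of all clusters. Their arrays did not overlap, as for 44.3% of all clusters. The median size of change was 1.51 over the members and 0.08 over all clusters. The members were chosen with earlier results of these arrays known, so these shares describe them and set nothing apart.

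The 3 comparisons share arrays, and each gene's pattern is best read from the position of the combination between the single arms. On the log2 scale Spp1 in the combination stood at 5.32% of the way up from dexa+IL4 to cmB16F1. Thbs1 stood at 39.3% and Tgfbi at 89.1%. Over 18 alternatives the share ran from -9.17% to 18.5% for Spp1, from 29.9% to 46.7% for Thbs1 and from 70.6% to 105% for Tgfbi. The lowest share of each came with scaling to the hybridization controls. The highest came without combination replicate 1 for Spp1 and Thbs1 and without cmB16F1 replicate 1 for Tgfbi. For Fn1 the single arms did not differ beyond the threshold, and no such share is given. These shares rest on means of 3 arrays, and that of Spp1 on a difference from dexa+IL4 that did not pass the test.

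The distance from the midpoint of the single arms was tested directly. Fn1 lay 1.72 above it (SE 0.082, Benjamini-Hochberg adjusted p = 2.33e-06 by limma), and Spp1 lay 0.80 below it (log2 difference -0.80, SE 0.179, adjusted p = 0.0154). Over all clusters 13% passed this test, 6.06% above the midpoint and 6.89% below it. Thbs1, at -0.27 from the midpoint, did not pass (95% confidence interval -0.67 to 0.12, limma adjusted p = 0.376). It was -0.08 without combination replicate 1 and -0.44 without its replicate 3, neither of them called. It passed as -0.51 after scaling to the hybridization controls (limma adjusted p = 0.00121), a scaling that moves the median of all features by -0.23. Tgfbi lay 0.47 above the midpoint with an interval from 0.12 to 0.83 and missed the adjusted threshold (limma adjusted p = 0.0858). In the fit with a replicate block it passed (limma adjusted p = 0.0105). It also passed without combination replicate 3 (0.61, limma adjusted p = 0.044) and without cmB16F1 replicate 1 (0.56, 0.0261), and its adjusted p ran from 0.0105 to 0.28 over all 17 alternatives.

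**Figure D3:**
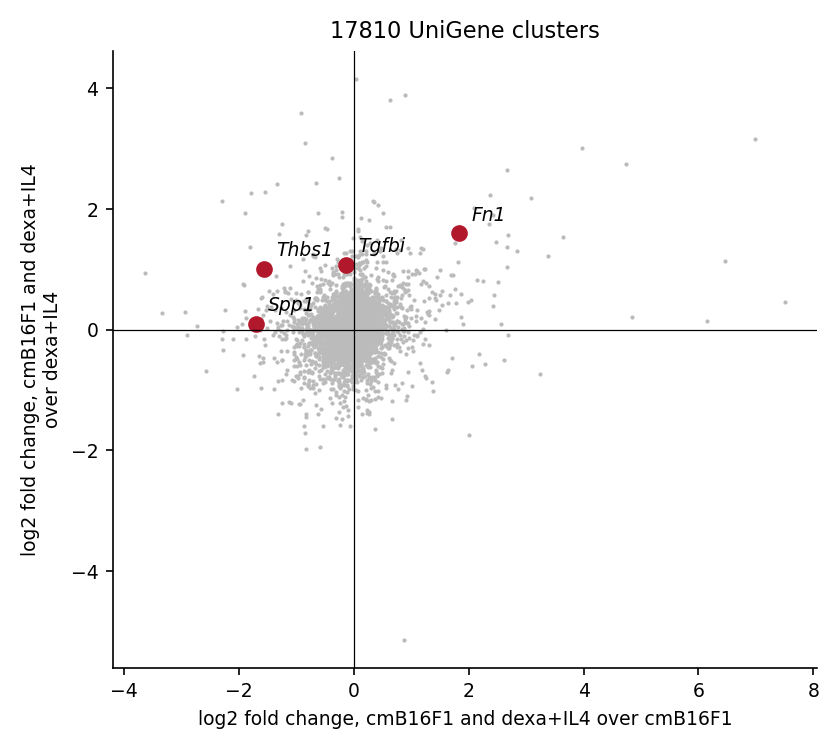
Each grey point is 1 of the 17810 clusters, placed by its log2 fold change in the combination over cmB16F1 (horizontal) and over dexa+IL4 (vertical), with the 4 genes in red. Fn1 is at 1.84 and 1.60, Thbs1 at -1.56 and 1.01, Tgfbi at -0.13 and 1.08, and Spp1 at -1.70 and 0.10. Both axes use the same combination arrays, so a joint position is no independent evidence.

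Classes of clusters were defined from the pattern of each gene itself, most of them with a 2-fold limit. Fn1 was 1 of 25 clusters (0.14%) called in both comparisons of the combination and at least 2-fold up in each. By the smaller of its differences from the single arms, 1.60, it was in 10th place among 17810. Spp1 and Thbs1 were among 92 clusters (0.517%) that were at least 2-fold lower both in the combination and with dexa+IL4 than with cmB16F1. Thbs1 was also 1 of 209 (1.17%) called above dexa+IL4 and below cmB16F1 in the combination, a class without a size limit. Tgfbi was 1 of 50 (0.281%) at least 2-fold higher in the combination and with cmB16F1 than with dexa+IL4, with no call between the first and the last. Without the 2-fold limit, the class of Fn1 held 376 clusters (2.11%), that of Spp1 and Thbs1 904 (5.08%) and that of Tgfbi 714 (4.01%). These classes use the calls reported above and add no test to them.

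For each gene, the cluster most like it was the one whose centred log2 profile over the 9 arrays had the smallest root mean square difference, among 10767 others with a mean above the bacterial controls. For Thbs1 it was Mm.3460, at a difference of 0.18, with means of 11.49 in the combination, 10.58 with dexa+IL4 and 13.02 with cmB16F1. For Tgfbi it was Mm.399 at 0.12, for Fn1 Mm.4325 at 0.23 and for Spp1 Mm.1618 at 0.24. Mm.4325 had means of 10.07 in the combination, 8.64 with dexa+IL4 and 8.30 with cmB16F1. Within a difference of 0.3 lay 93 clusters for Tgfbi, 7 for Spp1, 6 for Fn1 and 3 for Thbs1. Profiles were not scaled for their span, which was smaller for Tgfbi than for Spp1 or Thbs1, so these counts give no order of how common the patterns were. The files do not pair these clusters with gene names.

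Arrays of equal replicate number deviated together in the combination and cmB16F1, and the members showed this unevenly. For Tgfbi replicate 1 was the highest array of both groups, and the differences of the combination from the cmB16F1 array of its number were -0.11, -0.12 and -0.17. The SD within each of these groups, 0.35 and 0.32, includes variation that arrays of equal number shared. It therefore does not measure the spread of those differences. For Thbs1 replicate 1 was the lowest of both groups, and the differences were -1.52, -1.75 and -1.43. For Fn1 they were 1.80, 1.94 and 1.80. Spp1 varied most, with -2.33, -1.42 and -1.35, and its replicate 1 was the lowest array of the combination and the highest of cmB16F1. In the fit with a replicate block, the change of Tgfbi between these groups remained -0.13, with a narrower interval from -0.39 to 0.12 (limma adjusted p = 0.507).

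**Figure D4:**
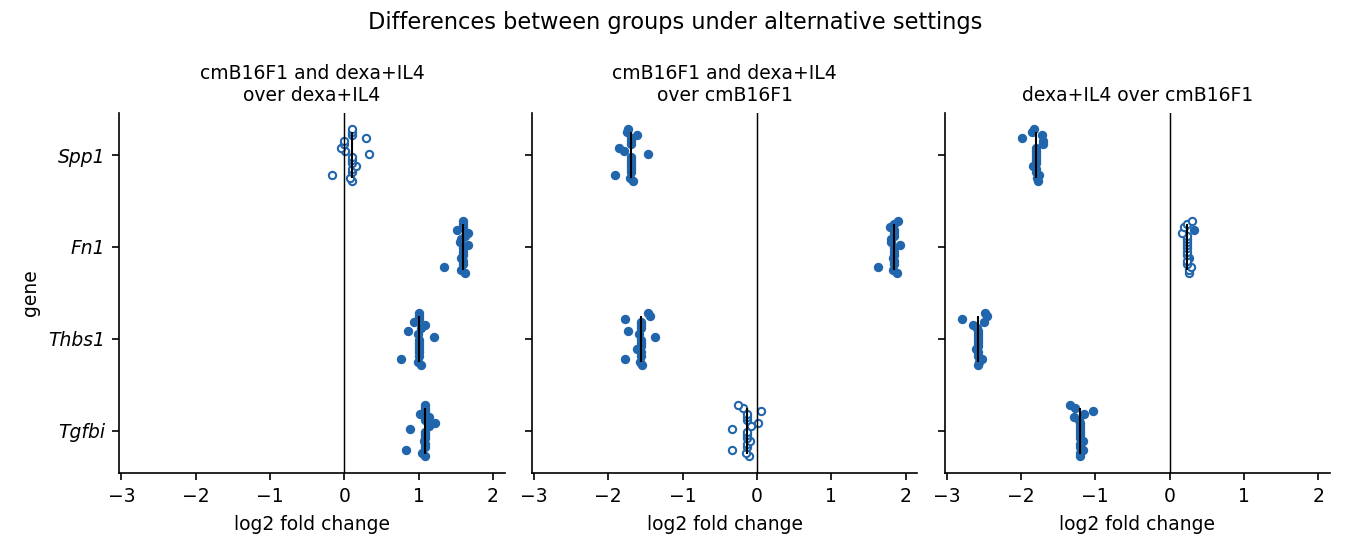
Log2 fold changes of the 4 genes in each comparison of 2 groups under 18 alternative settings (points) and as reported (black bars), with filled points for an adjusted p under 0.05 and open points otherwise. The 9 reported calls stay filled on the same side of 0 in all 18, while Spp1 over dexa+IL4 in the combination runs from -0.16 to 0.33 and Tgfbi over cmB16F1 from -0.34 to 0.05, all open.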

How the data were processed

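RNA of 9 samples was hybridised to 1-colour Affymetrix arrays, 1 per sample, as biotinylated cRNA per the labels' protocols. The authors deposited a table on the log2 scale, already normalized between arrays. That the scale is log2 follows from the range of the values (5.86 to 14.23). How background was corrected, values were normalized and summarised, and probe sets were defined is not given in the sources used here, nor are scan batches. The table held 17931 probe sets, of which 64 were control sets. Where a cluster had a plus and a minus set (57 clusters), the set with the higher mean was used.

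Differences were fitted with limma 3.58.1 in R 4.3.3 (lmFit, then eBayes with trend = TRUE) on all 9 arrays, with group as the only term, 6 residual and 3.848 prior degrees of freedom, and no filter. Benjamini-Hochberg adjustment ran over 17829 features (17810 clusters and 19 mouse control sets), with a threshold of 0.05. Arrays have no read depth, and their number limits the precision. The procedure was tested on simulated data with independent noise on each array. The simulation left out the correlation between arrays of equal number that is given below.

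Alternatives were other normalizations, variance models, weights, a filter, fits to the compared groups alone, a replicate block and leaving out each array. Arrays of equal number in the combination and cmB16F1 had deviations from the group means that correlated across clusters at 0.617, 0.565 and 0.662. All were over the limit of 0.1 and so met the rule set for pairing. With dexa+IL4 not every correlation passed that limit. The labels do not say what arrays of equal number share, be it cultures or processing. The reported fit did not use the pairing, and the fit with a replicate block is given as an alternative.

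The text names the 4 genes and, for each, the cluster of the nearest profile. Receptors, proteases and cell type markers listed by symbol could not be looked up. The genes, lists and motifs were chosen with earlier results of these data known. Gene positions come from the RefSeq annotation of GRCm38.p6, in which 4 of the 4 symbols were found. Promoter sequences come from RefSeq for the same build and were present for Spp1 and Tgfbi only.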

Additional observations from a re-analysis of the deposited data

How the results depend on the processing

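The 9 calls among the 12 comparisons of 2 groups kept their direction and passed the threshold under all 18 alternatives, and the 2 calls against the midpoint of the single arms (Fn1 and Spp1) did so under all 17. The highest adjusted p of any of these calls was 0.0447, for Spp1 against the midpoint. Scaling to the hybridization controls shifted the median of all features by -0.26 against dexa+IL4 and by -0.20 against cmB16F1. With it, Spp1 against dexa+IL4 was -0.16 and Thbs1 against the midpoint -0.51 and called, and 7104 clusters passed against dexa+IL4, 1893 between the single arms and 7768 against the midpoint, in place of 3184, 4454 and 2307. Among called clusters, the higher ones made up 5.34% in place of 49.7% in the combination against dexa+IL4, 11.7% in place of 46.4% against cmB16F1 and 3.22% in place of 46.8% against the midpoint. With median centring the first of these was 38.1%. The cause of these differences was not tested beyond the shift in the median. With array weights, Fn1 between the single arms passed at 0.26.

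Leaving out 1 array at a time gave values from -0.05 to 0.33 for Spp1 against dexa+IL4, from -0.33 to 0.05 for Tgfbi against cmB16F1, from 0.17 to 0.33 for Fn1 between the single arms, from 0.28 to 0.61 for Tgfbi and from -0.44 to -0.08 for Thbs1 against the midpoint. The count of clusters against dexa+IL4 ran from 2044 to 3356, with 2044 without dexa+IL4 replicate 1 and 2096 without its replicate 3. Of all the results here, the replicate block changed the call of Tgfbi against the midpoint alone, which passed at 0.47. Spp1 with cmB16F1 lay at 12.85 on average against a maximum of 14.23 over all arrays and sets, a range in which array signals can flatten. The same caution holds for Tgfbi, with means of 12.00 in the combination and 12.13 with cmB16F1. Flattening was not tested.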

Other observations

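Ratios between the genes within an array do not change when all log2 values of that array shift by the same amount. They can change with a scaling that depends on intensity, such as quantile normalization. All 6 ratios among the 4 genes were compared between each pair of groups, which gave 18 comparisons. Each such difference follows from the log2 fold changes of the genes given above, so it is no independent evidence. The smallest exact two-sided permutation p that 3 arrays against 3 give is 0.1, so no ratio was able to pass 0.05. The ratio of Spp1 to Fn1 differed most between the combination and cmB16F1, by -3.54 on the log2 scale (exact permutation p = 0.1). The ratio of Spp1 to Thbs1 differed by -0.14 between these groups, with overlap (exact permutation p = 1). Against dexa+IL4 the ratio of Thbs1 to Tgfbi in the combination differed by -0.07, with overlap (exact permutation p = 1), although its SD was 0.70 in the combination and 0.02 with dexa+IL4 (n = 3 each).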
